A study of Homo sapiens with 6 samples.

Results

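MicroRNAs are made in 2 cuts. In the nucleus the Microprocessor, formed by the endonuclease DROSHA and its double-stranded RNA binding partner DGCR8, cuts a hairpin out of the primary transcript, and XPO5 (exportin 5), driven by the GTPase RAN, carries the hairpin to the cytoplasm. There the endonuclease DICER1, with TARBP2 (TRBP) or PRKRA (PACT) bound, removes the loop, and 1 strand is loaded into an Argonaute protein, AGO1, AGO2, AGO3 or AGO4, to guide it to target messages. The same Argonaute and loading steps serve transfected small interfering RNAs, and AGO2 is the member known best for slicing a fully paired target.

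The 10 genes of this machinery were taken by gene ID from the authors' deposited table of 19589 features, and all 10 had a row and an adjusted p. RNA sequencing of ribosomal RNA-depleted total RNA compared siHOTAIR libraries, transfected with a small interfering RNA against the long non-coding RNA HOTAIR, with siNC libraries, transfected with a control small interfering RNA. The cell line in the labels is HepG2, a line from a liver tumour, and each group has 3 labelled libraries. Both groups therefore carry a transfected small interfering RNA, and no untransfected library was analysed here. Neither the dose nor the time after transfection is given in the labels, and separate cultures are not stated, so p-values measure only the spread between these libraries.

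The authors' deposited table holds 1 mean and 1 fold change for a gene and no value for a library. All 3940 means above 0 and up to 2 were whole-read sums over 5 libraries (within 2e-09; 0 after a random shift), 3 of siHOTAIR and 2 of siNC, so 1 labelled siNC library is not represented. Whole reads could be recovered for 9 of the 10 genes, with 575 to 4137 reads a gene over the 5 libraries, and these libraries are called a, b and c, since their replicate numbers are unknown. Their size factors were 1.15, 0.934 and 0.888 in siHOTAIR and 1.19 and 0.893 in siNC. HOTAIR itself had 62.4, 78.2 and 59.7 normalized counts in siHOTAIR libraries and 202 and 150 in siNC libraries. The label HepG2 was at odds with the liver markers: of 20 hepatocyte markers 8 had no row, among them ALB, AFP, APOB and TTR, and 8 of the other 12 had a mean under 3 normalized counts, among them APOA1 (0.382) and SERPINA1 (0.167) in the authors' deposited table. CPS1, the first enzyme of the urea cycle, had a mean of 23334 and HNF4A 5.06 in the authors' deposited table. These are therefore called libraries labelled HepG2, with no other cell type given to them.

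Of the 10 genes, DICER1, DROSHA and PRKRA fell and DGCR8 rose at an adjusted p under 0.05 in the authors' deposited table, while TARBP2, XPO5 and the 4 Argonautes did not pass. DICER1 and PRKRA were at 61.5% and 60.2% of their siNC levels and DROSHA at 72.5%, whereas DGCR8 was at 121% in the authors' deposited table. There, 40.4% of all tested features passed, 20.4% that fell and 20% that rose, so 4 passing genes of 10 is the share found among all features. The median log2 fold change of the 10 genes was -0.15, against 0.0069 over all features with an adjusted p, and the median size of the change was 0.24, against 0.32, in the authors' deposited table. These features were not matched to the 10 genes by level. The 10 genes had means of 112 to 1054 normalized counts, against a median of 199 over all features with an adjusted p. In bulk RNA, fewer cells that hold a transcript and less of it in each cell cannot be told apart. The authors' own stricter call words, which mark 3.91% of features as up or down, name 0 of the 10 genes.

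**Figure D1:**
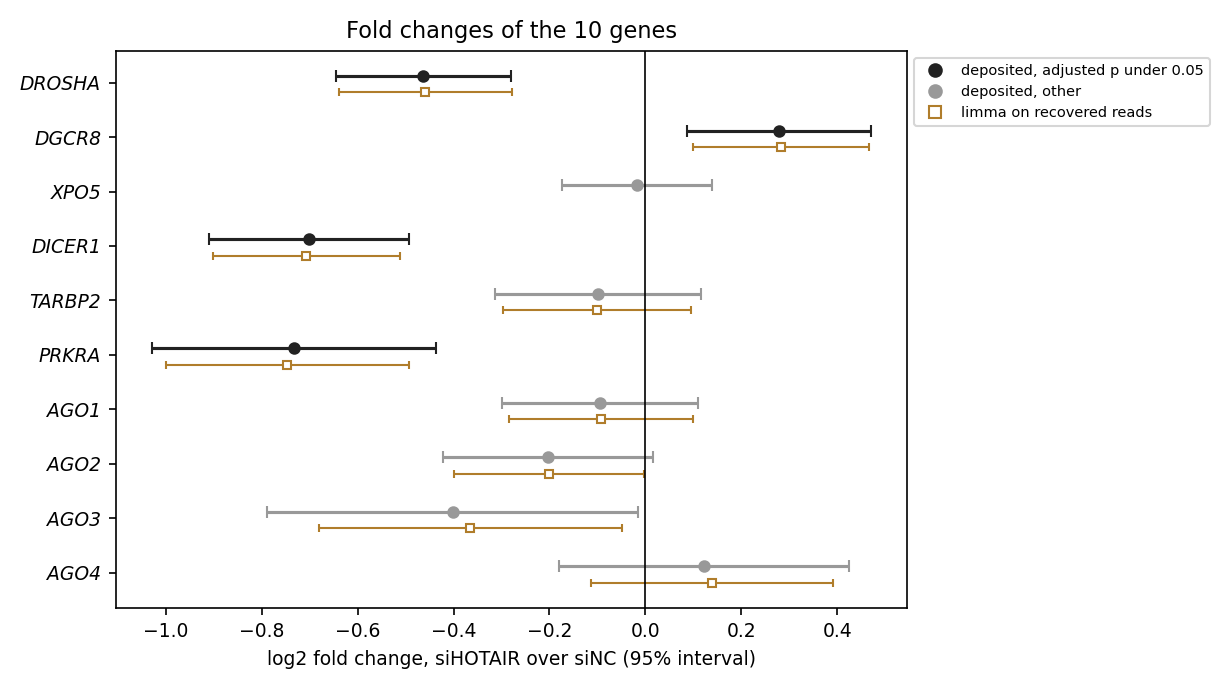
Log2 fold changes of siHOTAIR over siNC for the 10 genes, in the order of the pathway, with 95% intervals; circles are from the authors' deposited table (black where the adjusted p is under 0.05) and open squares from limma on the recovered reads, which XPO5 lacks. DICER1, PRKRA and DROSHA lie left of 0, DGCR8 lies right of it, and the limma intervals of AGO2 and AGO3 end just below 0.

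DGCR8 carries microRNA hairpins in its own message, which the Microprocessor is known to cut, and so their mature sequences are shown first, with the seed (bases 2 to 8) in capitals. The sequences are RefSeq's, on the plus strand of GRCh38.p14.
hsa-miR-3618: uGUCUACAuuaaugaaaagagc
hsa-miR-1306-5p: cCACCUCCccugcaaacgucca
hsa-miR-1306-3p: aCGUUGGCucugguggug
The first, at chr22:20085797-20085818, lies in exon 2 upstream of the start codon, which begins at 20085964, and outside every annotated coding sequence of DGCR8. Both arms of MIR1306, at chr22:20086072-20086093 and chr22:20086112-20086129, lie in coding sequence. The 3 seeds differ from one another. Neither MIR3618 nor MIR1306 had a row in the table used here, so their own reads were not analysed here. DICER1 also hosts a microRNA, MIR3173, within an intron on the same strand, with a mean of 0.393 normalized counts in the authors' deposited table.

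DROSHA, the catalytic subunit of the Microprocessor, had 711, 659 and 738 normalized counts in siHOTAIR libraries, against 1046 and 892 in siNC libraries. Every siHOTAIR library was lower than either siNC library. The means were 703 ± 39.9 (SD, n = 3) in siHOTAIR and 969 ± 109 (SD, n = 2) in siNC, and the log2 fold change in the authors' deposited table was -0.46 (SE 0.0931, adjusted p = 4.93e-06). With limma on the recovered normalized counts it was -0.46 (95% interval -0.64 to -0.28, adjusted p = 2.4e-05). Leaving out each library in turn gave -0.57 to -0.34, and DROSHA passed in all 5 fits.

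DGCR8, which binds the hairpin and holds DROSHA in place, moved the other way. It had 682, 767 and 822 normalized counts in siHOTAIR libraries, against 641 and 601 in siNC libraries. The groups did not overlap, but the gap between siHOTAIR library a and siNC library a was small beside the range within siHOTAIR. The means were 757 ± 70.8 (SD, n = 3) in siHOTAIR and 621 ± 28.8 (SD, n = 2) in siNC, and the log2 fold change in the authors' deposited table was 0.28 (SE 0.0976, adjusted p = 0.0132). With limma it was 0.28 (95% interval 0.098 to 0.47, adjusted p = 0.0082). The call was lost without siNC library b (adjusted p = 0.0886, limma) and without siHOTAIR library c (adjusted p = 0.0510, limma), so it rests on those libraries.

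Since DROSHA fell and DGCR8 rose, the number of DROSHA reads for each DGCR8 read was taken within a library, which needs no size factor; this ratio was chosen after the values were seen. It was 1.04, 0.860 and 0.897 in siHOTAIR libraries, against 1.63 and 1.49 in siNC libraries. The mean was 0.934 ± 0.0967 (SD, n = 3) in siHOTAIR and 1.56 ± 0.103 (SD, n = 2) in siNC, a difference of -0.74 on the log2 scale, and the groups did not overlap. The two-sided exact permutation p was 0.2, the smallest that 3 libraries against 2 can give. Every siHOTAIR library was below both siNC libraries for DROSHA and above both for DGCR8. The ratio therefore had to separate the groups and give this p, and it adds no evidence to the 2 single genes. Per kilobase of the longest annotated transcript, DROSHA was below DGCR8 in all 3 siHOTAIR libraries (134, 124 and 139, against 151, 170 and 182 normalized counts per kilobase for DGCR8) and above it in both siNC libraries (197 and 168, against 142 and 133). Per kilobase of coding sequence DGCR8 was the higher of both in all 5 libraries, so that order depends on the length used.

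**Figure D2:**
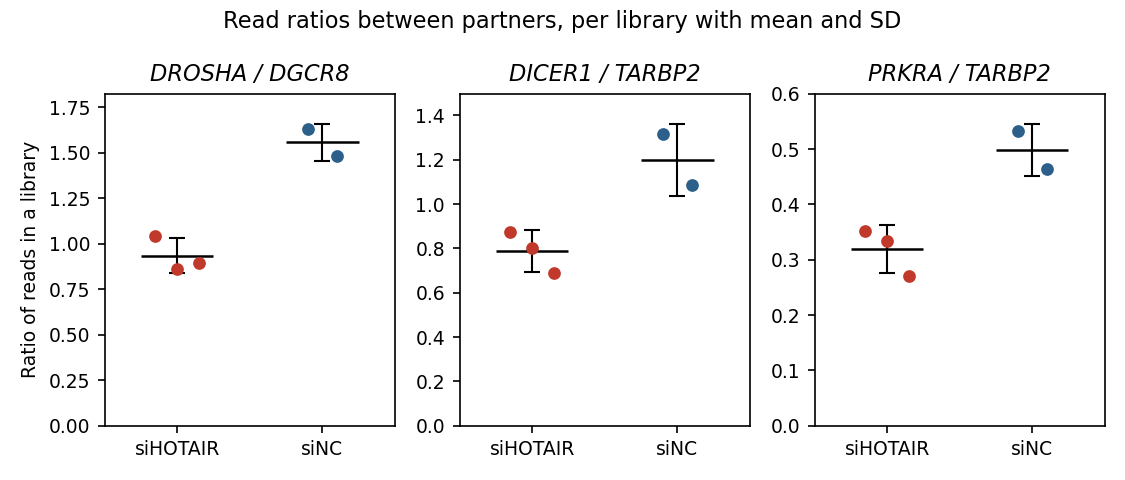
Ratio of reads between binding partners within each library (points), with the mean (horizontal line) and SD (bar), for siHOTAIR (red, 3 libraries) and siNC (blue, 2 libraries); each vertical axis starts at 0. In all 3 panels every siHOTAIR library lies below both siNC libraries, for DROSHA over DGCR8 between 0.860 and 1.04 against 1.49 and 1.63. The ratios were chosen after the values were seen and restate changes of single genes.

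The promoters of DROSHA and DGCR8 are shown because these partners changed in opposite directions. Each is the 300-base RefSeq window, 250 bases before to 50 after the start, on GRCh38.p14, with CCAAT boxes (CCAAT, or ATTGG on the other strand) and GC boxes (GGGCGG, or CCGCCC on the other strand) in capitals; no 2 matches overlap.
DROSHA, chr5:31532044-31532343, minus strand: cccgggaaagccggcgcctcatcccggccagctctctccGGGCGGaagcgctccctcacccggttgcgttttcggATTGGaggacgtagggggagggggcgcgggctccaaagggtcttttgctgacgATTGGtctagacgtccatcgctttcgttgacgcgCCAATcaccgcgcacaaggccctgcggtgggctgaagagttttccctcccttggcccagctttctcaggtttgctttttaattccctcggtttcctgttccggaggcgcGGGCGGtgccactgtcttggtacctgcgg
DGCR8, chr22:20079991-20080290, plus strand: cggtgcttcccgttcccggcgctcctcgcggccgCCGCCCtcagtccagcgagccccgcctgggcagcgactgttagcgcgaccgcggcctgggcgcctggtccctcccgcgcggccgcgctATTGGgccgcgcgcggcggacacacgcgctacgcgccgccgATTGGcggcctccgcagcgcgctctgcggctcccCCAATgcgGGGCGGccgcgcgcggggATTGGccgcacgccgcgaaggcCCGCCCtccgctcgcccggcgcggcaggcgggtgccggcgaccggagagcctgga
The DROSHA window holds 3 CCAAT boxes, first bases at -175, -122 and -88 from the start, and 2 GC boxes. The DGCR8 window holds 4 CCAAT boxes, at -128, -87, -53 and -27, and 3 GC boxes. TARBP2, which did not pass in the authors' deposited table, has 3 windows. The one at chr12:53500673-53500972 also holds 3 CCAAT boxes, and the others hold 0 and 1. Each window of DICER1 and of PRKRA, which fell, holds 0 or 1. Among 34796 promoter windows of the same length 34.6% hold a CCAAT box and 44.9% a GC box, while 3.25% hold at least 3 CCAAT boxes and 0.994% at least 4. Base content was 63% G or C with 28 CG pairs for DROSHA and 80.3% with 57 for DGCR8, against medians of 58.7% and 14. It was not taken for the other genes, and a relation of boxes or base content to the fold changes was not tested. A match is only these letters in this window, and no binding was measured. The letters CACGTG (in 7.2% of windows), TATAAA (11.6%), CCGGAAG (10.2%) and TGAGTCA (4.96%), also searched on both strands, are in neither window.

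XPO5, the exporter of the cut hairpin, had the highest mean of the 10, 1054 normalized counts in the authors' deposited table. Its reads had 8 and 3 whole-number solutions under the looser limits tried on fold change and spread and 1 only under the tightest, so no value per library is given; the group levels implied by the authors' deposited table were 1049 normalized counts in siHOTAIR and 1061 in siNC. The log2 fold change in the authors' deposited table was -0.017 (SE 0.0796, adjusted p = 0.894), and its 95% interval runs from 88.7% to 110% of siNC. XPO5 overlaps POLR1C, a subunit of RNA polymerases I and III, which had -0.079 (adjusted p = 0.601) in the authors' deposited table.

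DICER1, the endonuclease of the second cut, had 344, 323 and 310 normalized counts in siHOTAIR libraries, against 548 and 515 in siNC libraries. The groups lay far apart, with the highest siHOTAIR library below the lowest siNC library by 0.58 on the log2 scale. The means were 326 ± 17.2 (SD, n = 3) in siHOTAIR and 532 ± 23.3 (SD, n = 2) in siNC, and the log2 fold change in the authors' deposited table was -0.70 (SE 0.107, adjusted p = 7.16e-10). With limma it was -0.71 (95% interval -0.90 to -0.51, adjusted p = 2.13e-08), and it passed in all 5 fits without 1 library, from -0.75 to -0.66. Of all features with an adjusted p, 16.8% had a larger change than DICER1 in the authors' deposited table. The transcript antisense to it, DICER1-AS1, had -0.12 at a mean of 11.6 (adjusted p = 0.869) in the authors' deposited table.

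PRKRA, a double-stranded RNA binding partner of DICER1 also known as an activator of the kinase PKR, had 139, 135 and 122 normalized counts in siHOTAIR libraries, against 222 and 221 in siNC libraries. These were 394 reads in all in siHOTAIR and 462 in siNC, with no overlap between the groups. The means were 132 ± 8.90 (SD, n = 3) in siHOTAIR and 221 ± 0.808 (SD, n = 2) in siNC. That siNC SD rests on only 2 libraries, with 265 and 197 reads, and is a poor measure of their spread. The log2 fold change in the authors' deposited table was -0.73 (SE 0.151, adjusted p = 9.13e-06). With limma it was -0.75 (95% interval -1.0 to -0.49, adjusted p = 1.86e-06), and it passed in all 5 fits without 1 library, from -0.78 to -0.69. PRKRA has an annotated pseudogene, PRKRAP1, and it overlaps the non-coding RNA CHROMR (-0.38, adjusted p = 0.302 in the authors' deposited table), so a share of its reads is uncertain.

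TARBP2, the other double-stranded RNA binding partner of DICER1, had 393, 404 and 449 normalized counts in siHOTAIR libraries, against 417 and 475 in siNC libraries. The groups overlapped, and the log2 fold change in the authors' deposited table was -0.10 (SE 0.110, adjusted p = 0.509), with an interval of 80.4% to 108% of siNC. DICER1 reads for each TARBP2 read numbered 0.874, 0.801 and 0.689 in siHOTAIR libraries, against 1.32 and 1.08 in siNC libraries. PRKRA reads for each TARBP2 read numbered 0.352, 0.334 and 0.271 in siHOTAIR libraries, against 0.532 and 0.465 in siNC libraries. Neither ratio overlapped between the groups (two-sided exact permutation p = 0.2 each, the smallest possible), and like the ratio within the Microprocessor both were chosen after the values were seen. The ratios differed by -0.61 and -0.65 on the log2 scale, where DICER1 and PRKRA had -0.70 and -0.73 in the authors' deposited table. They thus mostly restate those 2 falls. Normalized counts of single features did not overlap for 66.5% of all features with recovered reads, and the share for ratios was not taken. TARBP2 overlaps the kinase gene MAP3K12, which had -0.17 (adjusted p = 0.139) in the authors' deposited table, and whether counting used strand is not stated, so a share of its reads is uncertain.

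**Figure D3:**
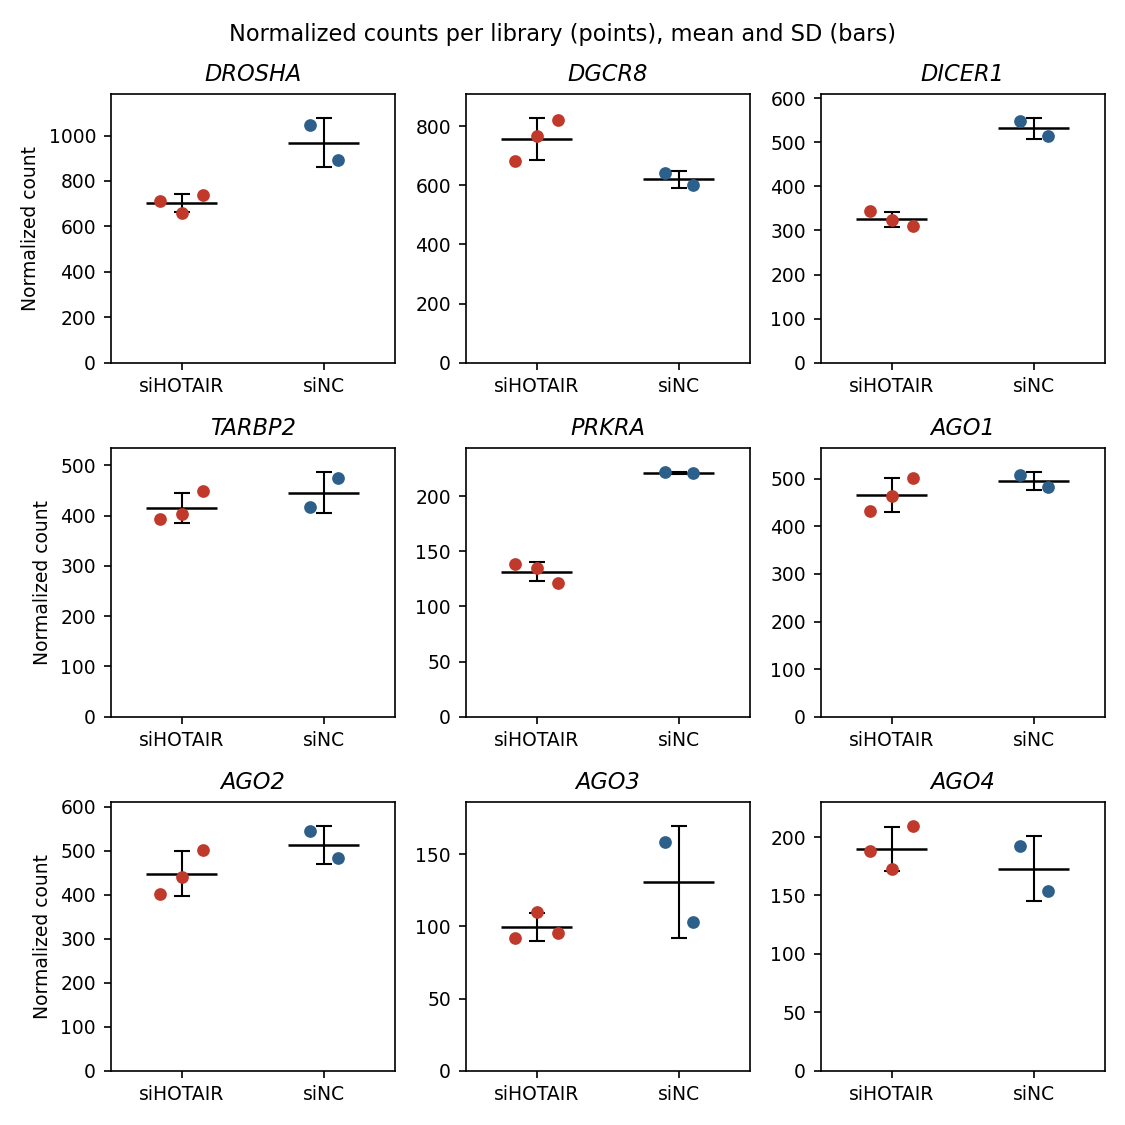
Normalized counts (vertical axes, from 0) of the 9 genes with recovered reads in each siHOTAIR library (red, n = 3) and siNC library (blue, n = 2), with the mean (horizontal line) and SD (bar). The groups are apart for DROSHA, DGCR8, DICER1 and PRKRA and overlap for TARBP2 and the 4 Argonautes.

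None of the Argonautes passed in the authors' deposited table. AGO1 had 431, 464 and 502 normalized counts in siHOTAIR libraries, against 509 and 483 in siNC libraries (log2 fold change -0.095, SE 0.104, adjusted p = 0.507 by the authors' deposited table). AGO2 had 400, 441 and 501 normalized counts in siHOTAIR libraries, against 543 and 483 in siNC libraries (-0.20, SE 0.111, adjusted p = 0.138 by the authors' deposited table). For both, siHOTAIR library c lay within the siNC range and the other siHOTAIR libraries below it. Without siHOTAIR library c AGO2 had -0.29 and passed (adjusted p = 0.0165, limma), against -0.20 (95% interval -0.40 to -0.003, adjusted p = 0.0824, limma) with all 5 libraries.

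AGO3 had 91.8, 110 and 95.8 normalized counts in siHOTAIR libraries, against 158 and 103 in siNC libraries. Only siNC library a stood above the siHOTAIR range. The log2 fold change was -0.40 (SE 0.197, adjusted p = 0.0922) by the authors' deposited table and -0.36 (95% interval -0.68 to -0.050, adjusted p = 0.0467) with limma, which passed; without siNC library a it was -0.058 (adjusted p = 0.841, limma). AGO4 had 188, 172 and 210 normalized counts in siHOTAIR libraries, against 193 and 153 in siNC libraries (0.12, SE 0.155, adjusted p = 0.577 by the authors' deposited table). Its direction turned without siNC library b (-0.024, adjusted p = 0.917, limma).

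The Argonautes were also set against each other per kilobase of coding length, as a share of their summed level in a library. AGO1 held 38.8% ± 0.337 in siHOTAIR and 38.0% ± 2.28 in siNC, and AGO2 37.1% ± 1.14 in siHOTAIR and 39.1% ± 0.549 in siNC (SD, n = 3 and n = 2). AGO3 held 8.27% ± 0.985 in siHOTAIR and 9.84% ± 2.01 in siNC, and AGO4 15.8% ± 1.21 in siHOTAIR and 13.1% ± 0.823 in siNC. By coding length AGO1 and AGO2 were thus near each other and well above AGO4 and AGO3 in both groups. That gap depends on the length used: per kilobase of the longest transcript AGO4 held 27.7% ± 1.79 in siHOTAIR and 23.7% ± 1.45 in siNC, and AGO2 31.8% ± 1.13 in siHOTAIR and 34.4% ± 0.546 in siNC. The AGO2 share was 36.0% to 38.3% in siHOTAIR and 38.7% to 39.5% in siNC, and the AGO4 share 14.5% to 16.9% in siHOTAIR and 12.5% to 13.7% in siNC, so neither overlapped, while the AGO1 and AGO3 shares did overlap between the groups. The two-sided exact permutation p was 0.2 for the AGO2 and AGO4 shares, the smallest possible, 0.8 for AGO1 and 0.4 for AGO3. Shares of the same sum depend on each other, so the AGO2 and AGO4 shares are not independent results. Between the groups, normalized counts did not overlap for 66.5% of all features with recovered reads. The summed normalized counts of the 4 genes were 1203 ± 99.7 in siHOTAIR and 1313 ± 128 in siNC, a difference of -0.13 on the log2 scale (two-sided exact permutation p = 0.4, n = 3 and n = 2).

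**Figure D4:**
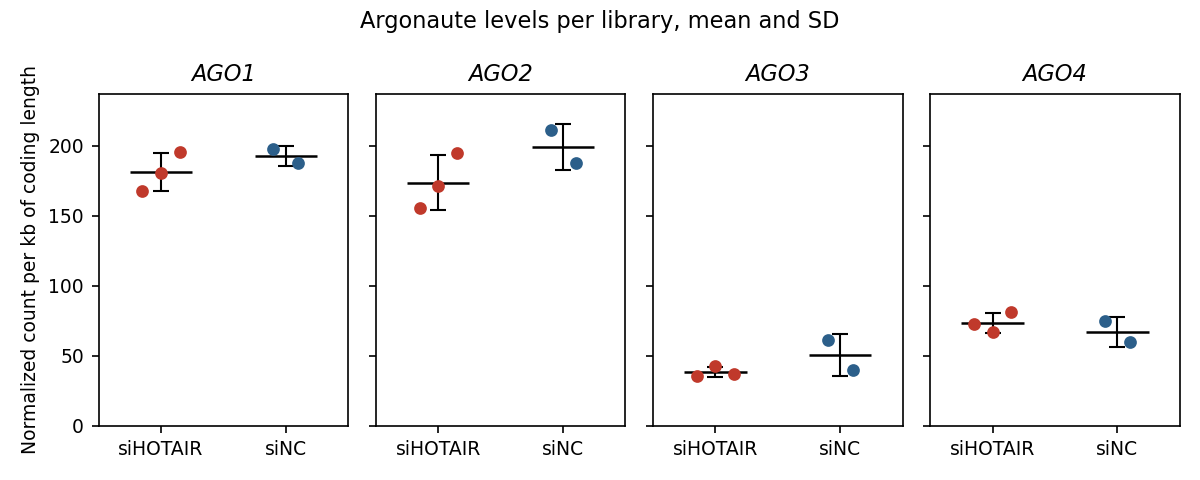
Normalized counts per kilobase of coding length for AGO1 to AGO4 in each siHOTAIR library (red, n = 3) and siNC library (blue, n = 2), on 1 shared axis from 0, with the mean (line) and SD (bar). On this length AGO1 and AGO2 stand well above AGO4 and AGO3 in both groups, whereas per kilobase of the longest transcript the ranges of AGO2 and AGO4 overlap; siHOTAIR and siNC overlap for each gene.

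Counted over the 9 genes with recovered reads, 4 had groups that did not overlap (DROSHA, DGCR8, DICER1 and PRKRA), which is below the 66.5% found over all 10121 features with recovered reads. With limma 5 of the 9 passed, AGO3 joining those 4, where 52.1% of all features did, 28.6% that fell and 23.5% that rose. By mean level per kilobase of the longest annotated transcript the order was TARBP2 (229 normalized counts per kilobase), XPO5 (196), DGCR8 (156), DROSHA (153), PRKRA (91.8), DICER1 (39.5), AGO1 (34.9), AGO2 (32.5), AGO4 (25.7) and AGO3 (5.68). The ranges over the 5 libraries overlapped between the neighbours DGCR8 and DROSHA, DICER1 and AGO1, AGO1 and AGO2, and AGO2 and AGO4. PRKRA (66.6 to 122) and AGO3 (4.66 to 8.04) stood apart from their neighbours, and XPO5, next to TARBP2 (211 to 254), has no range. With coding length only 3 of the 10 kept their rank, TARBP2 first among them with 390, while DICER1 came ninth with 70.8.

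Related genes of the pathway were read from 8 lists, with the deposited adjusted p of the authors' table deciding the call. For every list, the shares over all tested features are 20.4% that fell and 20% that rose. Of 14 nuclear cofactors described with primary microRNA cleavage 7 fell and 3 rose (median log2 fold change -0.26). NCBP2, the small subunit of the cap-binding complex, had -0.56 (adjusted p = 1.00e-09) and the helicase DDX5, known as p68 of the Microprocessor, -0.43 (adjusted p = 4.10e-06) in the authors' deposited table. SRRT (ARS2), which links the cap to primary microRNA cleavage, had 0.35 and HNRNPA1, which binds some primary microRNA loops, 0.40 in the authors' deposited table. In the Ran cycle that drives XPO5, 3 of 4 genes rose and 0 fell, with 0.58 for the exchange factor RCC1, 0.45 for RANGAP1 and 0.20 for RANBP1, and RAN had 0.064 (adjusted p = 0.590) in the authors' deposited table.

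Of 13 chaperones and nucleases described in loading of the silencing complex, 3 rose and 1 fell. The chaperone HSP90AA1, which holds Argonaute open for loading, had 0.83 (adjusted p = 1.00e-27), HSP90AB1 0.28 and the co-chaperone AHSA1 0.28, while HSPA4 had -0.31 in the authors' deposited table. Of 14 Argonaute partners 2 rose and 3 fell. IPO8, an importin that binds Argonautes, had -0.78 (adjusted p = 5.64e-12), the helicase DDX6 -0.31, FMR1 -0.27 and AJUBA 0.42 in the authors' deposited table. The TNRC6 scaffolds (GW182), singled out after their values were seen, did not pass: TNRC6A had 0.14, TNRC6B -0.10 and TNRC6C 0.17 in the authors' deposited table.

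Of 11 tested genes described to modify or degrade Argonautes, 7 fell and 1 rose (median -0.27), where 20.4% of all tested features fell and 20% rose. ZSWIM8, the receptor of the ligase that degrades Argonautes bound to certain targets, had -0.51 (adjusted p = 1.07e-09) and ANKRD52, a subunit of the phosphatase that acts on AGO2, -0.57 (adjusted p = 1.44e-12) in the authors' deposited table. The prolyl hydroxylase subunit P4HA1 had -0.61 and its partner P4HB 0.65 in the authors' deposited table. Among 13 tested enzymes that tail, trim, edit or degrade microRNAs or their precursors, 8 fell and 4 rose (median -0.31). The uridylyltransferase TUT1 had -0.78, the RNA methyltransferase BCDIN3D -1.37, the exonuclease XRN1 -0.64 and the editing enzyme ADARB1 0.85 in the authors' deposited table.

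Of 11 other double-stranded RNA binding proteins 3 fell and 1 rose, with -0.40 for the helicase DHX9, -0.40 for STAU2, -0.43 for the sensor RIGI and 0.22 for ILF2 in the authors' deposited table. The germline PIWI pathway was listed with 10 genes, of which 5 had a row and 2 an adjusted p; PLD6 had 0.52 (adjusted p = 0.0468) in the authors' deposited table. Over the 8 lists 29 of 82 tested genes fell and 18 rose, that is 35.4% and 22.0%, beside 20.4% and 20% of all features. These are counts with no test of a list, and all features were not matched to the lists by level. Over the 10121 features with recovered reads, at means of 20 to 1000, limma called 28.6% that fell and 23.5% that rose. Some markers of other cell types moved with the groups in the authors' deposited table. Of 8 fibroblast markers 6 had a row and 5 an adjusted p, of which COL1A1 (0.86), PDGFRB (1.24) and DCN (1.77) rose and ACTA2 (-0.47, adjusted p = 0.248) and COL3A1 (-0.066, adjusted p = 0.904) did not pass, while COL1A2 and PDGFRA had no row. The levels implied by the authors' deposited table sum to 2348 normalized counts in siHOTAIR and 1282 in siNC for those 6, and to 1939 in siHOTAIR and 1337 in siNC for 5 endothelial markers, nearly all of it ENG. Of these ENG (mean 1602) and VWF (mean 5.38) rose, and CDH5 (0.47, adjusted p = 0.0675) and PECAM1 (-0.16, adjusted p = 0.859) did not pass in the authors' deposited table. For 4 leukocyte markers the sums were 139 in siHOTAIR and 191 in siNC. CD68 fell (-0.47), CD14 (-0.054, adjusted p = 0.955) did not pass, and PTPRC and CD3E had no row, in the authors' deposited table. For 6 markers of other epithelia the sums were 11389 in siHOTAIR and 11863 in siNC, nearly all KRT7, a keratin of simple epithelia. PAX8 fell (-0.75, adjusted p = 0.0418) in the authors' deposited table. KRT7 (-0.057, adjusted p = 0.615), SFTPC (0.95, adjusted p = 0.199) and GATA3 (-0.17, adjusted p = 0.747) did not pass there. The part of such markers in the changes of the 10 genes was not tested.

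**Figure D5:**
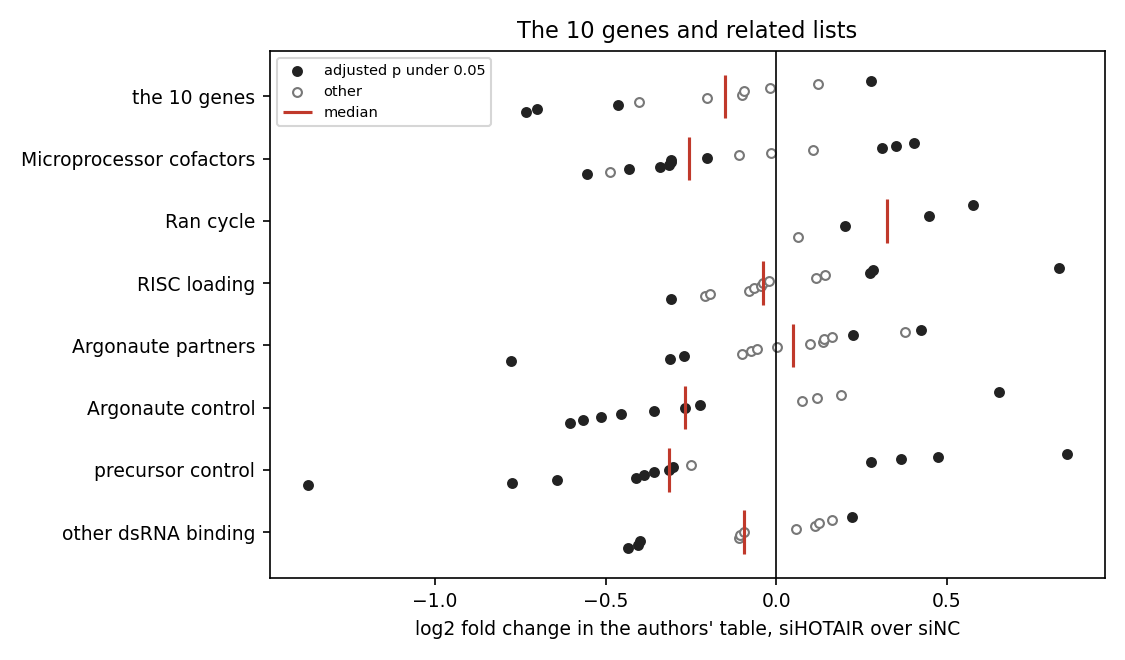
Log2 fold changes of siHOTAIR over siNC in the authors' deposited table for the 10 genes and 7 related lists (each point a gene; filled where the adjusted p is under 0.05; red line, median). The Ran cycle lies to the right of 0, and the lists on Argonaute control and precursor control have medians of -0.27 and -0.31.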

How the data were processed

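Per the labels' protocols, total RNA was depleted of ribosomal RNA and sequenced from stranded libraries. Per the submitters' processing notes the tools were HTSeq 0.6.1, DESeq and DESeq2, with build hg19. No aligner, annotation or strand setting is named in those notes, the labels or the files. The authors' mean column is a signal, deposited as normalized counts (counts over size factors) averaged across libraries. Its log2 fold changes with their standard errors, the score (statistic), the p-values and the adjusted p-values are also the authors', as deposited, and the table has 0 columns of single libraries. A gene rose or fell where the authors' adjusted p was under 0.05; 95% intervals are the fold change ± 1.96 SE.

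Reads per library were recovered from the deposited means. The 3940 nonzero means up to 2 are all whole sums of 5 steps within 2e-09, each step being the share of the mean that 1 read of 1 library makes up. Single-read features placed a step in siHOTAIR (deposited fold change above 0) or siNC (below 0). For means of 20 to 1000, 10121 of 10122 features had 1 whole-number solution near the deposited fold change and within a limit on the spread inside a group. After a random shift of the mean 38 of 2028 features still had a solution, and 25 of 190 did at means of 700 to 1000, the range of DROSHA and DGCR8. The search used the deposited fold change, so limma's fold changes are not independent of it.

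The planned edgeR test was not run, since reads were recovered only for part of the features. limma 3.58.1 (R 4.3.3) with a mean trend was fitted to log2(recovered normalized count + 1) over 10121 features, with Benjamini-Hochberg adjustment over them. Depth is known as size factors and reads of each recovered gene, and the total reads of a library are not known.

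Gene IDs were given symbols through RefSeq's gene table (GRCh38.p14); the files hold no coordinates, and those printed belong to the RefSeq sequences of that build. Of the 10 genes, 9 matched a promoter entry. Transcript and coding lengths are from GENCODE 29. Named genes were HOTAIR, the 10 genes and up to 4 of each related list with the smallest p-values; the TNRC6 genes, the genes that overlap the 10 and the ratios were added after their values were seen. The 10 genes and the lists were chosen with earlier results of these data known. One marker is not reported here.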

Additional observations from a re-analysis of the deposited data

How the results depend on the processing

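DICER1, DROSHA and PRKRA kept their direction and passed under every alternative run: adjusted p thresholds of 0.01 and 0.001, adjustment over other sets of features, centring on the median feature, limma, limma-voom, a pseudocount of 0.5 and each library left out, except that DROSHA is below the 1.5-fold limit. DGCR8 did not: the number of the 10 genes that rose was 0 at an adjusted p under 0.01, 0 under 0.001 and 0 with a change of at least 1.5-fold. Without 1 library in turn (limma) DGCR8 had 0.22 to 0.35, AGO2 -0.29 to -0.12, AGO3 -0.67 to -0.058 (the last without siNC library a) and AGO4 -0.024 to 0.30, and the calls of DGCR8, AGO2 and AGO3 changed with the library left out. AGO3 passed with limma (-0.36) but not in the authors' deposited table, and AGO4 turned to -0.024 without siNC library b. In fits without a siNC library the lone siNC library is assumed to vary like the others. All fits to recovered reads used counts found near the deposited fold change. They are therefore no independent check of a direction or size. Of the related genes 19 fell at an adjusted p under 0.01, against 29 at 0.05. By level per length 3 of the 10 genes kept their rank with coding length and 3 with the shortest complete transcript. Over all features limma called 4188 to 5067 without 1 library and 5278 with all 5. No paired analysis was possible because the replicate numbers of the recovered libraries are unknown. Reads of XPO5 had 1 solution only under the tightest limits tried and were not used, recovery was limited to means of 20 to 1000, and AGO3, with 575 reads in all, had the widest interval of the 10 genes.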
